A study of Mus musculus with 4 samples.

Results

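The 150 brightest noncoding RNAs on 4 mouse expression arrays are described here, and whether their levels differed when intestinal stem cells lacked the type I interferon receptor. The members were chosen from the 1414 RefSeq noncoding transcripts that the array carries, of which 590 gave a signal well above background on all 4 arrays. Each transcript was represented by its brightest probe. The 150 with the highest mean signal were kept, the signal being the log2 of the background-corrected intensity minus the 75th percentile of the same array. A value of 0 is therefore a signal at that percentile, and a step of 1 is a doubling. The choice used brightness and detection over all 4 arrays and not the comparison of the groups.

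Both groups were Lgr5-EGFP-Ires-CreERT2 mice, in which a reporter and an inducible recombinase are driven from Lgr5, the receptor that marks intestinal stem cells. The knockout group was Ifnar1-/-:Lgr5-EGFP-Ires-CreERT2, so it also lacked Ifnar1, a chain of the receptor through which type I interferons signal. All mice, controls included, were given daily injections into the peritoneal cavity of poly(I:C), a double-stranded RNA analogue that induces interferon, at 2 mg/kg for 1 week. The cells with the brightest Lgr5 reporter were sorted by flow cytometry, and total RNA was amplified and hybridised, with 2 arrays per group. No untreated group was analysed here, and the animals' ages are not given in the sources used here. The labels do not say whether the 2 samples of a group came from separate animals, so p-values measure only the spread between these samples.

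Long noncoding RNAs are transcribed and often spliced like messenger RNAs but encode no known protein, and some act in the nucleus as scaffolds. Host genes of small nucleolar RNAs carry in their introns the guides that direct modification of ribosomal RNA, and their spliced transcripts are commonly degraded by nonsense-mediated decay. Transcribed pseudogenes are copies of protein genes that have lost the reading frame but are still copied into RNA, and their sequence can stay close to that of the functional relatives. Poly(I:C) reaches the interferon genes through sensors of double-stranded RNA, and interferon then induces many genes through its receptor, those of antigen presentation among them.

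The targeted gene checked the labels. Ifnar1 was at -0.18 and -0.32 in the control samples and at -1.72 and -2.23 in the knockout samples, 3.31-fold lower in the knockout (limma with the slide as a block, adjusted p = 0.0313, and 0.476 when unblocked). Lgr5, the marker used for sorting, was at 3.08 and 2.87 in control samples, against 3.36 and 2.98 in knockout samples. Of the stem cell markers, 14 of 16 listed were tested and 0 were called. The replicate number is also the slide: control 1 and knockout 1 shared the first, and control 2 and knockout 2 the second. The slides also differed in Xist, the RNA of X inactivation, which is not a member: 1 probe read 5.39 in control 1 and 4.59 in knockout 1 but -4.12 in control 2 and -4.32 in knockout 2, where it was not well above background. Between 63.3% and 67.7% of probes were well above background on an array, and 0 spots were saturated.

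RefSeq, assembly GRCm38.p6, gave a gene symbol for 138 of the 150 members. It classed 79 as long noncoding RNAs, 51 as transcribed pseudogenes, 3 as small nuclear RNAs, 2 as ribosomal RNAs, 2 as protein-coding genes and 1 as another RNA, and 12 transcripts were not matched to a symbol. The member levels ran from 0.45 to 8.90, with a median of 2.32, against a median of -0.44 over the 25575 accessions tested. The pseudogenes had a median level of 3.59 and the long noncoding RNAs of 1.87. A probe's brightness depends on its sequence as well as on the amount of RNA, so the order of the levels is an order of signals and not of transcript abundance.

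The 3 brightest members were long noncoding RNAs. I730030J21Rik was at 8.94 (control 1), 8.96 (control 2), 8.76 (knockout 1) and 8.95 (knockout 2). 2310002F09Rik was at 8.76 and 8.97 in the control and at 8.79 and 8.78 in the knockout. Their groups overlapped or lay within 0.20 of one another, while Gm6994, with control values of 8.96 and 9.05 and knockout values of 8.19 and 8.78, was lower on both knockout arrays. 1700110I01Rik and A530006G24Rik followed at mean levels of 8.46 and 8.30. RefSeq classed 2 members as ribosomal RNA, while the 12 members not matched to a symbol have no class and may hold others. Rn28s1, the large-subunit ribosomal RNA, was at 6.59 and 6.78 in control samples, against 6.56 and 6.73 in knockout samples. The small RNA Rn4.5s was at 7.75 (control 1), 8.30 (control 2), 7.83 (knockout 1) and 8.17 (knockout 2). For both, the slides lay farther apart than the groups. The unmatched NR_046233, the pseudogenes Gm6548, Zfp133-ps and Gm8580 and the antisense RNA Pitpnm2os1 completed the 12 brightest, at mean levels of 7.72, 7.63, 6.78, 6.56 and 7.14. At the lower edge, AU040972 at 0.47 and 1500009C09Rik and D7Ertd143e at 0.45 were the last inside the set, and Haglr and 2610035D17Rik at 0.43 and NR_028584 at 0.42 were the first outside it.

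**Figure D1:**
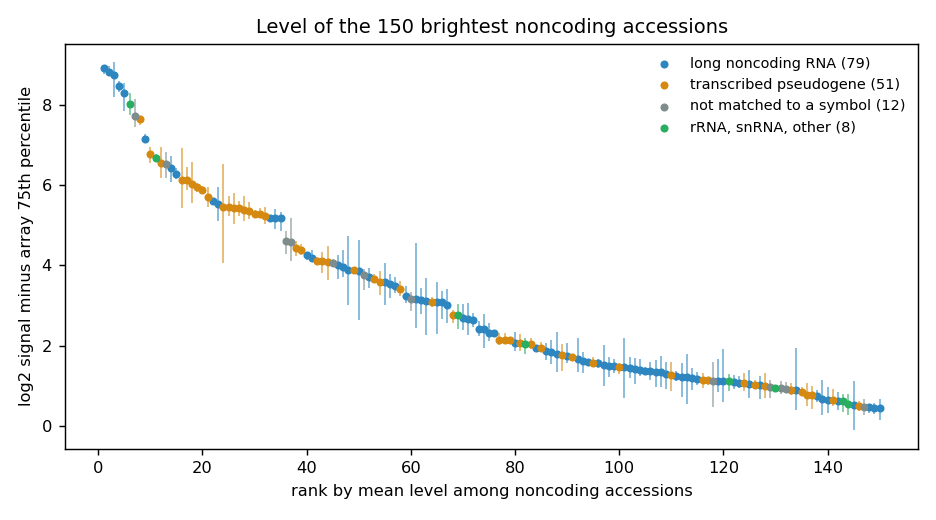
Mean level of each of the 150 members (log2 signal minus the array's 75th percentile) against its rank by mean level, coloured by RefSeq class; the vertical line spans the lowest and highest of the 4 arrays. The levels run from 8.90 down to 0.45, and the longest spans belong to single RNAs such as Defa-ps1 and Gt(ROSA)26Sor.

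Most bright noncoding RNAs differed little between knockout and control, and 2 pseudogenes had the largest differences, both lower in the knockout. The median difference, knockout minus control on the log2 scale, was -0.02 over the members, with -0.02 within slide 1 and -0.03 within slide 2, against 0.02 over all accessions tested. Of the members, 143 (95.3%) differed by less than 0.5, against 87.8% of all accessions and 95.9% of the 9766 accessions at least as bright as the dimmest member. The differences ran from -1.83 to 0.64.

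In limma without a block 0 members were called in either direction at an adjusted p of 0.05, and the same held over all 25575 accessions (0% lower and 0% higher). At an unadjusted p under 0.05, 3 members were lower, against 1.71% of accessions, and 1 was higher, against 1.01%. With the slide as a block, limma called 2 members lower, where 0.473% of accessions (121) were called lower, and 0 members higher, where 0.109% (28) were called higher. At an unadjusted p under 0.05 in that fit, 13 members were lower, against 5.2% of accessions, and 13 were higher, against 7.25%. Among the 440 dimmer noncoding RNAs detected on all arrays, limma with the slide block called 2 lower and 0 higher. In both fits limma's variance followed an intensity trend. With the slide block but no trend, limma called 0 members and 0 of the 25575 accessions (smallest adjusted p = 0.397). With all arrays kept, every call given here, those of Ifnar1, relatives and markers included, therefore rests on both the block and the trend. Fits that left out an array did call accessions without the block, and they are named as such where given. Unless another fit is named, "fell" and "called" refer to the fit with both the block and the trend.

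By sign alone, 58 members (38.7%) had a lower knockout value on each slide, against 27.5% of all accessions, and 43 (28.7%) were higher on both, against 33.5%. In 19 members both knockout values lay below both control values, against 11.6% of accessions, and in 16 both lay above, against 14.2%; these shares are near the background. The 2 largest classes leaned in opposite directions by small amounts, and the pseudogene lean shrank under quantile normalization. Of the 79 long noncoding RNAs, 38 (48.1%) were lower and 11 higher on both slides, with a median difference of -0.05. Of the 51 pseudogenes, 14 were lower and 24 (47.1%) higher on both slides, with a median of 0.06. The 9766 accessions at least as bright as the dimmest member had a median of 0.05. With quantile normalization the pseudogene median was 0.02, like that of all accessions. It was 0.07 with median scaling and 0.08 with normexp background correction. Under the 3 other scalings or background corrections the long noncoding RNAs lower on both slides numbered 34 to 40 and the pseudogenes higher on both numbered 20 to 28, while the median over all accessions stayed between 0.02 and 0.03. The difference between the classes was not tested.

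**Figure D2:**
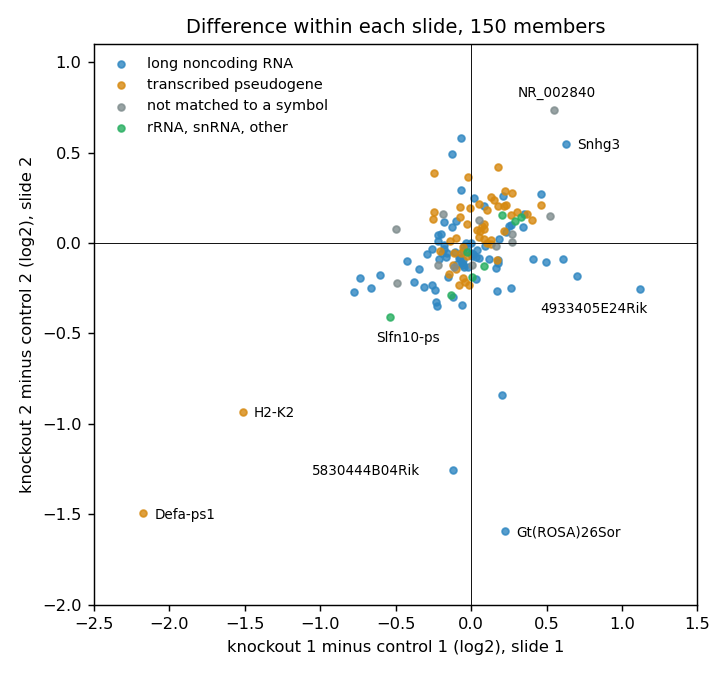
Knockout minus control within slide 1 (x axis, log2) against the same within slide 2 (y axis, log2) for each of the 150 members, coloured by RefSeq class. H2-K2 and Defa-ps1 lie far to the lower left, at -1.51 and -0.93 and at -2.17 and -1.49, while most points lie within 0.5 of 0 on both axes.

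Both members that fell belong to families of protein genes in which some, not all, tested relatives fell as well. H2-K2 is a class I gene of the mouse major histocompatibility complex that RefSeq classes as a transcribed pseudogene; its functional relatives present peptides to T cells, and interferon induces them. It was at 6.93 and 6.56 in the control and at 5.42 and 5.62 in the knockout. Both knockout values lay more than 0.9 below both control values. The group means were 6.74 ± 0.27 and 5.52 ± 0.14 (SD, n = 2 each), a fall of 2.33-fold (log2 difference -1.22, SE 0.14, limma with the slide block, adjusted p = 0.033). The call was lost in limma without the block (adjusted p = 0.565) and with the block but no intensity trend (adjusted p = 0.507). A second H2-K2 probe gave -1.24. The protein-coding H2-K1 and H2-D1 fell by 1.19 and 1.21 on the log2 scale (adjusted p = 0.0313 and 0.033 in limma with the slide block). H2-K1 was at 6.37 and 6.71 in control samples, against 4.91 and 5.78 in knockout samples, and H2-D1 was at 6.42 and 5.95 against 4.93 and 5.02. Of other class I genes tested, H2-T10 and H2-Q10 were not called, with differences of -1.03 and -0.63 (adjusted p = 0.135 and 0.312), and H2-Q5 was. Class I genes are close in sequence, and a transcript of one can light another's probe, so the share of the H2-K2 signal that H2-K2 itself gave cannot be told apart from that of its relatives.

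Defa-ps1 is a pseudogene of the alpha-defensins, antimicrobial peptides of Paneth cells, which sit beside the stem cells in the crypt. It was at 6.23 (control 1), 6.53 (control 2), 4.06 (knockout 1) and 5.03 (knockout 2). The groups were apart by more than 1, and knockout 1 was the lower of the knockout pair. The means were 6.38 ± 0.21 and 4.55 ± 0.69 (SD, n = 2 each), a fall of 3.56-fold (log2 difference -1.83, SE 0.16, limma with the slide block, adjusted p = 0.0131). The call was lost in limma without the block (adjusted p = 0.572) and with the block but no intensity trend (adjusted p = 0.450). The protein-coding relatives Defa3, Defa23 and Defa26 fell by 1.65, 1.33 and 1.79 on the log2 scale, with adjusted p-values of 0.00363, 0.00693 and 0.0262 in limma with the slide block. Defa21 was not called, with a difference of -1.33 (adjusted p = 0.217). Without the block, Defa-ps1 was called when knockout 2 was left out (limma, adjusted p = 0.0138). Near-identical defensin transcripts can share a probe here too.

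Paneth cell markers moved with Defa-ps1. Of 17 listed markers, 12 were tested, and all 12 were lower on both slides, against 27.5% of all accessions. The list includes Defa3, Defa21, Defa23, Defa26 and other alpha-defensins, so it is not separate from the family described above. Limma with the slide block called 10 of the tested markers lower, against 0.473% of accessions, and their median difference was -1.74. The log2 of their summed signal was 9.97 and 10.44 for the control arrays and 8.24 and 9.12 for the knockout arrays, and the 12 tested were well above background on all 4 arrays. Lyz1, the lysozyme of Paneth cells, and Mmp7, the protease that matures defensins, were 4.04-fold and 4.21-fold lower (adjusted p = 0.00606 and 0.0319, limma with the slide block). Of 12 enteroendocrine markers tested 10 were lower and 2 higher on both slides, and 2, Chgb and Reg4, were called lower. Of 12 goblet markers 7 were lower and 1 higher on both, and 2, Spink4 and Ccl9, were called lower. Over all accessions 27.5% were lower on both slides, 33.5% were higher on both and 0.473% were called lower. Fewer cells of a type and less RNA per cell cannot be told apart in such bulk samples, and the part of these cells in the Defa-ps1 difference was not tested.

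**Figure D3:**
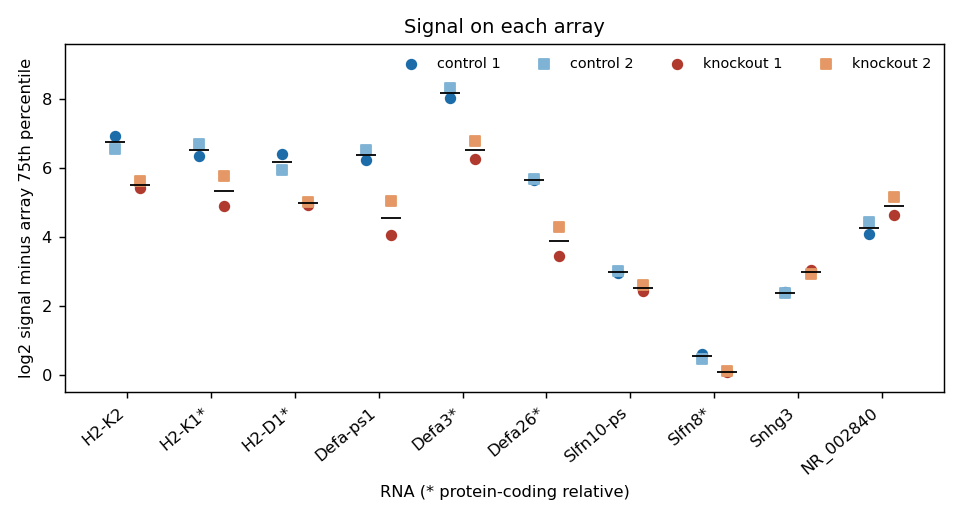
Signal on each array (log2 minus the array's 75th percentile) for 5 members and, marked with an asterisk, 5 protein-coding relatives; circles are slide 1, squares slide 2, blue is control, red and orange are knockout, and the short lines are group means. H2-K2 and Defa-ps1 lie lower in both knockout samples, as do the relatives plotted, while Snhg3 lies higher by 0.59.

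Among genes linked to interferon, the members other than H2-K2 did not pass the test. Slfn10-ps is a pseudogene of the Schlafen family, several members of which interferon induces. It was at 2.96 and 3.02 in the control and at 2.42 and 2.61 in the knockout, with no overlap, and the log2 difference of -0.47 had an adjusted p of 0.17 in limma with the slide block. Its relatives Slfn8, Slfn9 and Slfn2 differed by -0.44, -0.14 and -1.68 (adjusted p = 0.313, 0.521 and 0.133). Neat1, the RNA on which nuclear paraspeckles are built, was at 1.20 and 1.57 in control samples, against 1.40 and 0.73 in knockout samples. It was higher in the knockout on slide 1 and lower on slide 2. Of 22 listed interferon-linked noncoding or related genes, 10 were tested and 9 were lower on both slides; limma with the slide block called 3 lower, the member H2-K2 and, outside the members, Gbp10 and H2-Q5. By comparison, of 28 interferon-stimulated protein genes tested all 28 were lower on both slides and 14 were called lower. The shares over all accessions were 27.5% lower on both slides and 0.473% called lower. Of the 28, 23 were well above background on all 4 arrays. The rest may have passed the filter through the control group alone, so their direction is not separate from the filter.

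The other members with the smallest p-values on the lower side were NR_046233, Gm6994, A630089N07Rik, A530006G24Rik and A530072M11Rik. NR_046233, not matched to a symbol, was at 8.15 (control 1), 7.65 (control 2), 7.66 (knockout 1) and 7.43 (knockout 2), and its groups met, with control 2 just below knockout 1. Gm6994 differed by -0.52, A630089N07Rik by -0.46, A530006G24Rik by -0.39 and A530072M11Rik by -0.47, with adjusted p-values from 0.216 to 0.316 in limma with the slide block. In those 4, all long noncoding RNAs, the difference was larger on slide 1 than on slide 2, and A530072M11Rik, at 3.04 and 3.59 against 2.30 and 3.40, had overlapping groups.

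The host genes of small nucleolar RNAs were the largest of the listed families among the members: 28 were listed, 17 tested and 8 are members. The lists were matched by symbol, so a host among the 12 unmatched members would not be counted. The starts of 3 of them are printed. Snhg3 had the largest difference upward of any member with a symbol, and Snhg12 is its neighbour on chromosome 4. Snhg1 was the brightest host matched by symbol. The sequences are from RefSeq, assembly GRCm38.p6, each with 25 bases before the annotated start in lower case and 25 bases from the start onward in capitals. Snhg3 lies at chr4:132353662-132353711 on the minus strand, Snhg12 at chr4:132308653-132308702 on the plus strand and Snhg1 at chr19:8723462-8723511 on the plus strand.
Snhg3: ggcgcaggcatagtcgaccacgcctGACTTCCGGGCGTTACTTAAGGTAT
Snhg12: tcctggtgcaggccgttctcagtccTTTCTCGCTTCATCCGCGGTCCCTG
Snhg1: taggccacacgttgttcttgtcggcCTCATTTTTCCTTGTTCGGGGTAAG

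Snhg3 was at 2.40 and 2.38 in the control and at 3.04 and 2.93 in the knockout. The groups did not overlap, and each pair lay within 0.11. The log2 difference was 0.59 (0.63 and 0.55 within the slides), a ratio of 1.50, and it did not pass (SE 0.09, limma with the slide block, adjusted p = 0.0897). It did pass with normexp background correction in the same fit, at an adjusted p of 0.0325. Snhg12, whose start lies 45.0 kb from that of Snhg3 and which was singled out after its values were seen, was at 1.57 and 1.64 in control samples, against 1.54 and 1.64 in knockout samples, a difference of -0.02.

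The brighter hosts showed no common direction. Snhg1, the host of several guides in its introns, was at 4.27 (control 1), 3.65 (control 2), 4.20 (knockout 1) and 3.95 (knockout 2). Snhg6 was at 3.84 and 3.88 in the control and at 3.71 and 4.38 in the knockout. Snhg15 was at 2.31 and 2.61 in control samples, against 2.24 and 2.49 in knockout samples. The groups of all 3 overlapped, and the differences of the remaining member hosts ran from -0.11 for Snhg16 to 0.24 for Snhg7. Over the 8 member hosts matched by symbol the median difference was 0.05, and over the 17 tested it was 0.11. Limma with the slide block called 0 of the 17. Over the transcripts of 11 proteins of small nucleolar ribonucleoproteins, which bind the guides and modify RNA, the median difference was 0.04, and over those of 13 factors of nonsense-mediated decay it was 0.06, with 0 called in either list by limma with the slide block. The former included Nop10 at 0.42, Nop58 at 0.28 and Nhp2 at 0.28, each higher on both slides.

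NR_002840, not matched to a symbol and so in none of the lists, had the largest difference upward of all members. It was at 4.10 (control 1), 4.44 (control 2), 4.64 (knockout 1) and 5.17 (knockout 2), with no overlap, a difference of 0.64 (limma with the slide block, adjusted p = 0.0548, and 0.0138 with normexp background correction). The other 2 probes of the same transcript gave -0.30 and -0.10, so the direction was not shared by its probes. The remaining members with the smallest p-values on the higher side were 1 long noncoding RNA, 4930481A15Rik, at 0.37, and the pseudogenes Gm9199 at 0.34, Gm5643 at 0.30, Gm5523 at 0.27, 1600029O15Rik at 0.26 and Gm8580 at 0.21. Their adjusted p-values in limma with the slide block ran from 0.248 to 0.354. A second probe of Gm8580 gave 0.36 and a second probe of Gm5523 gave -0.27.

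The best-studied long noncoding RNAs among the members did not pass the test, and the differences of Firre and Neat1 changed sign between the slides. Of 33 listed, 13 were tested with a median difference of -0.05, and 4 are members: Firre, Norad, Pvt1 and Neat1. Norad, which binds Pumilio proteins, was at 2.81 and 2.56 in the control and at 2.75 and 2.47 in the knockout. Firre, an X-linked RNA that organises nuclear contacts, was at 2.26 and 3.68 in control samples, against 2.87 and 3.59 in knockout samples. The control pair of Firre was 1.42 apart, farther than the groups. Pvt1, the neighbour of Myc, was at 0.92 (control 1), 1.53 (control 2), 1.14 (knockout 1) and 1.59 (knockout 2), and Myc differed by -0.11. The 2 probes of Pvt1 disagreed, with 0.14 for the brighter and -1.14 for the other.

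Other classes gave members whose groups lay close together. Mir17hg, the primary transcript of a microRNA cluster that promotes proliferation, was at 1.43 and 1.30 in the control and at 1.60 and 1.16 in the knockout. Airn, the imprinted antisense RNA that silences Igf2r, was at 1.66 and 1.37 in control samples, against 1.24 and 1.27 in knockout samples, a difference of -0.26 (limma with the slide block, adjusted p = 0.457). Its groups did not overlap, its other probe gave -0.30, and Igf2r differed by -0.11. Rnu12, a small nuclear RNA of the minor spliceosome, was at 0.26 (control 1), 0.65 (control 2), 0.47 (knockout 1) and 0.80 (knockout 2), and Rnu3b1, a U3 RNA of early ribosomal RNA processing, was at 0.98 and 1.03 against 0.99 and 0.84. Both had differences smaller than 0.2.

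Transcripts of proteins that work with these RNAs were tested in 4 more lists, and limma with the slide block called 0 genes of each. The medians were 0.08 over 9 paraspeckle proteins, -0.04 over 11 proteins of RNase MRP and RNase P, 0.08 over 7 proteins of the 7SK particle and 0.06 over 17 proteins of RNA methylation and nuclear decay. They lay within 0.1 of the median of all accessions.

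Members were set beside related genes: the gene a pseudogene is named after, the gene opposite an antisense RNA, relatives of the same family, neighbours and the target of Airn. For 21 members 26 such genes were listed and 24 tested. Tyms-ps and its parent Tyms, which makes thymidylate for DNA synthesis, differed by 0.19 and 0.31. Tubb2a-ps2 differed by -0.04, and Tubb2a, a beta-tubulin, by 0.61 (limma with the slide block, adjusted p = 0.0635). Hmgb1-rs17 and Hmgb1, a chromatin protein, differed by 0.05 and 0.16, and Smarca5-ps and Smarca5, a chromatin remodeller, by 0.05 and 0.23. None of these 4 pairs held a call. Among the antisense RNAs, Dnmt3aos differed by -0.25 while Dnmt3a, a DNA methyltransferase, differed by 0.31, and Sp3os differed by -0.15 while Sp3, a transcription factor, differed by 0.00. The labels do not state that strand was kept through amplification, so an antisense RNA and the gene opposite cannot be told apart where they overlap.

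The members differed more between slides than between genotypes. Slide and replicate number are the same here, so a gap between slides cannot be told apart from one between the sources of the samples. The median size of the gap between the control samples was 0.26, and between the knockout samples 0.28, against 0.17 and 0.13 for the gap between the groups within slide 1 and slide 2. Across the 150 members, which share their arrays and scaling, control 1 minus control 2 and knockout 1 minus knockout 2 had a Pearson r of 0.751, given as a description. For 8 members, all long noncoding RNAs, the controls were more than 1 apart. 4930478P22Rik was at 4.74 on both arrays of slide 1, and at 3.08 and 3.02 on slide 2, so it followed the slide and not the genotype.

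A few members had 1 sample apart from the other 3. Gt(ROSA)26Sor, the RNA of the Rosa26 locus often used for transgenes, was at 2.44 and 4.55 in the control and at 2.67 and 2.96 in the knockout. Control 2 alone was high, and the difference was 0.23 on slide 1 and -1.59 on slide 2. 5830444B04Rik, at 0.52 and 1.94 in control samples, against 0.40 and 0.69 in knockout samples, was likewise high in control 2 alone, and 4933405E24Rik, at 2.64 (control 1), 4.63 (control 2), 3.76 (knockout 1) and 4.37 (knockout 2), was lowest in control 1. Their adjusted p-values in limma with the slide block ran from 0.385 to 0.585.

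**Figure D4:**
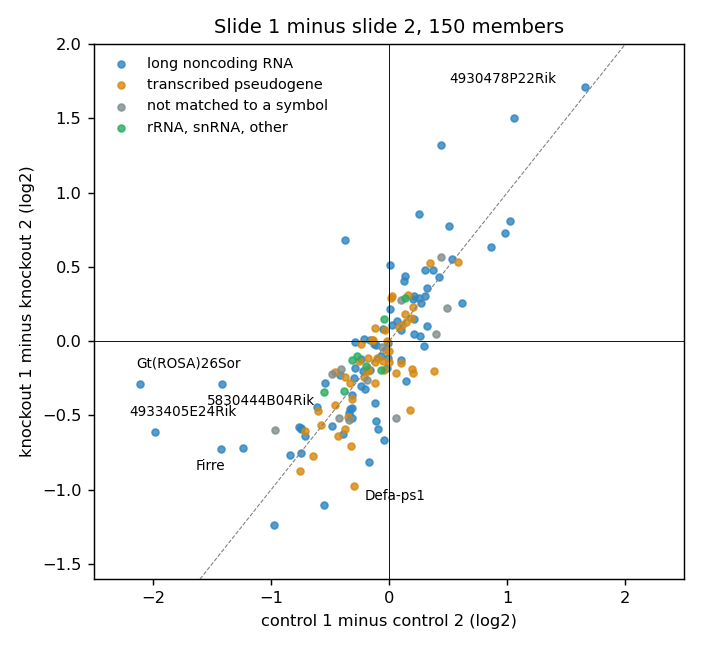
Slide 1 minus slide 2 in the control samples (x axis, log2) against the same in the knockout samples (y axis, log2) for each of the 150 members; the dashed line marks equal gaps. Points spread along the line from about the lower left to 4930478P22Rik at 1.66 and 1.71, while Gt(ROSA)26Sor, at -2.11 and -0.29, lies off it.

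Where a member had several probes, they often differed in direction. One probe was present for 112 members and several for 38. In 29 members at least 2 probes were well above background on all arrays. The probes had differences of the same sign in 15 of them and of opposite sign in 14, with a median gap of 0.20 and a largest gap of 1.29, for Pvt1. The directions of small differences therefore depended on the probe, while the 2 probes of H2-K2 were 0.02 apart.

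The promoters of the members were searched for the core of the interferon-stimulated response element. RefSeq windows of 250 bases before to 50 bases after the start were found for 66 of the 138 symbols, 76 windows in all. The motif, GAAA followed after any 2 bases by a second GAAA, was present on either strand in 0 of the 76, against 3.44% of all 32851 windows of the same length. H2-K2, Defa-ps1 and Slfn10-ps were not among the 66.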

How the data were processed

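RNA of sorted Lgr5-high cells was amplified from 20 ng with a whole-transcriptome kit and labelled with Cy3, per the labels' protocols. The deposited scanner tables hold background-corrected intensity, 1 colour, made with Agilent Feature Extraction 12.0.3.1 per the file headers (11.5.1.1 per the submitters' processing notes). The authors' deposited series table is each array's intensity times 1 constant per array, from 5.60 to 6.68, with column medians of 249, 231 (control), 239 and 223 (knockout); why those constants were chosen stays unknown.

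Control spots were left out, as were 111 to 172 outlier spots per array among the rest. Spots of 1 probe were averaged, and log2 intensity minus the array's 75th percentile was taken. Each accession kept its brightest probe. The 25575 accessions that passed the background flag on each array of either group were fitted with limma 3.58.1 in R 4.3.3 (variance trend, Benjamini-Hochberg at 0.05), without a block and with the slide as a block. Same-numbered samples share a slide per the file headers and deviated together: control 1 minus control 2 and knockout 1 minus knockout 2 correlated at 0.564 over all accessions. The number of arrays limits the precision.

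The members and lists were chosen with earlier results of these data known. The number listed counts the names sought, and a gene may have been sought under several names. Named RNAs are the 12 brightest, all called, the 8 with the smallest p in each direction and the same sign on both slides, the 4 brightest of each list, 3 on each side of the lowest rank, the 5 with the largest gap between controls, and genes paired with a member. Alternatives covered scaling, background correction, filter, probe choice, variance and each array left out.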

Additional observations from a re-analysis of the deposited data

How the results depend on the processing

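Without a block 0 accessions and 0 members were called. With the slide as a replicate block 149 accessions (121 lower, 28 higher) and 2 members were called, H2-K2 and Defa-ps1. With the replicate block and no intensity trend 0 accessions and 0 members were called (smallest adjusted p in limma 0.397), which ends all of these calls. Chosen after seeing the data, the replicate block with quantile normalization called 152 accessions and 2 members, with normexp 316 and 4 (2 lower, 2 higher), and with only accessions well above background on all 4 arrays 136 and 2. Leaving out 1 array without the block called 18 to 152 accessions and 0 to 1 members, the 1 being Defa-ps1 without knockout 2; an arm of 1 array is there assumed to vary like the other group. The member median of -0.02 became -0.01 with median scaling (-0.0108) and with normexp (-0.00915, also with the block), and -0.052 to 0.047 with each array left out. Of 300 members instead of 150, 110 (36.7%) were lower on both slides, against 58 (38.7%) of 150, so the share changed little. That count needs both slides, so leaving out an array gave no value, and filter and variance settings do not enter it. The probe rule can change it, but it was not counted with the probes of a member averaged. Of 323 values for 17 named differences over 19 settings, 319 kept their direction. That count says little about robustness, because block, variance and filter settings cannot change a difference. The members named for a small p were also chosen for the same sign on both slides. With each array left out, Gm8580 ran from -0.076 (without control 1) to 0.50 and was also below 0, at -0.07, without knockout 2. A530072M11Rik ran from -1.02 to 0.086 (without knockout 1) and 4930481A15Rik from -0.015 (without control 1) to 0.75. The cause was not tested. With 2 arrays per group, small differences of dim probes were not detectable.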

Other observations

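Dimmer noncoding RNAs, ranked below the 150, held 2 calls in limma with the slide as a block. AW011738 ranked at 156, just below the brightness limit, and was at 1.86 and 0.72 in the control and at -0.11 and -0.91 in the knockout, 3.47-fold lower (adjusted p = 0.0113). H2-Q5, another class I gene that RefSeq classes as a pseudogene, ranked at 199 and was at 1.81 and 0.37 in the control and at -1.68 and -1.67 in the knockout, 6.79-fold lower (adjusted p = 0.0411). Without the block, or with the block but no intensity trend, neither was called.

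Several well-known noncoding RNAs fell outside the 150 by brightness. Malat1, an abundant nuclear RNA, was at -1.16 and -0.79 in the control and at -0.56 and -0.52 in the knockout. AW112010 was at -0.54 and -0.40 in the control and at -1.99 and -0.45 in the knockout, so knockout 1 alone was low. Rmrp, the RNA of RNase MRP, was at -0.99 and 0.50 in the control and at -0.04 and 0.36 in the knockout. Limma with the slide block called none of these 3 (adjusted p from 0.398 to 0.561).

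The Y-linked Ddx3y was at -1.07 and -0.03 in the control and at -0.37 and -0.09 in the knockout, and Eif2s3y at -1.51 and -0.63 against -0.29 and -0.03, so both were well above background on all 4 arrays, also on the slide where Xist was high. The labels give no sex.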
